A study of Rattus norvegicus with 7 samples.

Results

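The 10 CXC and CX3C chemokines examined here were Cxcl1, Cxcl2, Cxcl6, Cxcl9, Cxcl10, Cxcl12, Cxcl13, Cxcl14, Cxcl16 and Cx3cl1, chosen by symbol from a table of 20660 rat genes in which each stood on 1 line. Their RNA was measured in synovium, the tissue lining the knee joint, from 7 male SD rats aged 3 months. Controls 2, 3 and 4 received no treatment, and the labels describe no vehicle injection. MIA 1, 2, 3 and 4 received MIA at 10 mg per kg in 0.1 mL into the right knee and gave tissue after 4 weeks. Sodium pentobarbital was given before the knee injection, and the protocol does not state whether controls received it. The labels do not expand the abbreviation, which in rodent joint models usually means monosodium iodoacetate, an inhibitor of glycolysis. Each rat gave 1 library, so the p-values measure the spread between rats within a group. Injection itself and the agent cannot be told apart, because no control was injected.

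Chemokines are small proteins that bind receptors of the G protein-coupled class and guide cells that carry these receptors. Neutrophil-attracting CXC ligands act through Cxcr2 and are induced by inflammatory cytokines through NF-kappaB. Cxcl9 and Cxcl10 are induced by interferons and attract T and NK cells through Cxcr3. Homeostatic ligands are made without inflammation and position cells in tissue: Cxcl12 acts on Cxcr4 and Cxcl13 on Cxcr5. Cxcl16 and Cx3cl1 are made as transmembrane proteins whose outer part can be shed by proteases.

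Total counts ran from 13870822 to 16261089 per library. Of 14054 genes tested, 40.9% were called in either direction: 21.3% were called higher and 19.6% lower in MIA, with edgeR's quasi-likelihood test at a Benjamini-Hochberg adjusted p under 0.05. Levels between libraries are given as CPM, counts brought to a common library size with trimmed mean of M values (TMM) scaling. Skeletal muscle transcripts took 13.7% to 16.0% of the counts in control libraries and 0.0591% to 4.87% in MIA libraries. Without that scaling, over all genes the median log2 change went from 0.07 to 0.51, and the share of calls that were higher from 52.1% to 78.0%, so changes are read relative to the scaled median. The summed sublining fibroblast markers stood at 3483 to 6492 CPM in controls and 35581 to 70895 CPM in MIA, and the macrophage markers at 322 to 414 CPM and 592 to 1444 CPM. Of the 6 sublining markers 5 were called higher, beside 21.3% of all tested genes higher and 19.6% lower. Col1a1 and Col3a1 made up most of the MIA sum. Dcn, like Col3a1 chosen after its values were seen, was 1400 to 2077 CPM in controls. In MIA it was 1144 to 3252 CPM (log2 change 0.16, edgeR adjusted p = 0.788). Prg4, a gene of the synovial lining, was at 185 to 4837 CPM, so synovial and muscle transcripts stood side by side in the libraries. In such bulk samples, fewer cells of a type and less RNA per cell cannot be told apart.

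Of the 10 chemokines, 5 rose and none fell, beside 21.3% of all tested genes higher and 19.6% lower. Cxcl1, Cxcl2 and Cxcl6, the neutrophil-attracting class, rose 3 of 3, the interferon-induced class 0 of 2, the homeostatic class 1 of 3 through Cxcl14, and the transmembrane class 1 of 2 through Cxcl16. The groups did not overlap for 4 of the 10, all with higher MIA values, beside 24.8% of all tested genes with higher, 24.4% with lower and 49.2% with either kind of separated groups. The median log2 change was 1.66 over the chemokines and 0.07 over all genes. All 10 passed the filter on low counts, but Cxcl2 and Cxcl6 could pass through MIA libraries alone, so these counts and the median are a description. The 5 calls are fragile: without control 3 or without control 4 none remained, although 6 and 5 chemokines then had an unadjusted p under 0.05. Without control 2 only Cxcl1 and Cxcl16 were called, and limma-voom called Cxcl14 and Cxcl16 alone. With the muscle marker level as a covariate, Cxcl2 and Cxcl6 were called higher and Cx3cl1 lower.

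**Figure D1:**
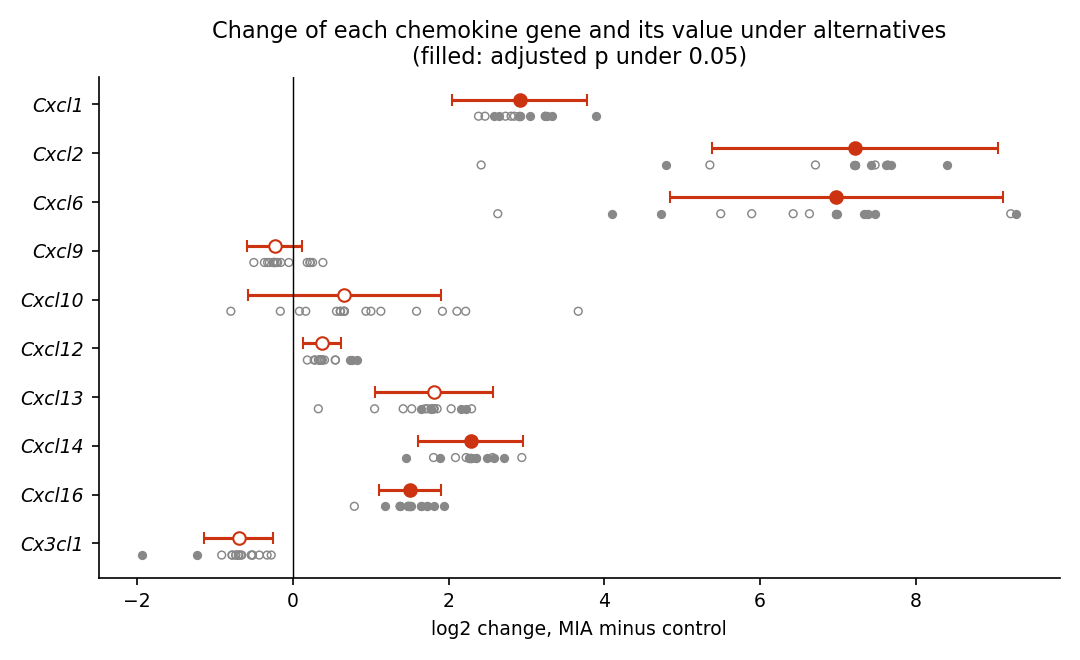
Log2 change of MIA against control for each chemokine (horizontal axis), ordered by class. Red points with bars are the edgeR estimate ± SE, grey points are the alternatives in processing, and filled points have an adjusted p under 0.05; Cxcl2 and Cxcl6 lie farthest right at 7.22 and 6.98, and Cx3cl1 lies left of 0 at -0.70.

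Within a library, levels of different genes were compared per length, as FPKM (fragments per kilobase of gene length, scaled to the library total). In controls the highest mean FPKM belonged to the homeostatic ligands, with Cxcl13 at 24.7 ± 14.4, Cxcl14 at 20.0 ± 7.81 and Cxcl12 at 17.5 ± 1.95 (SD, n = 3). Cxcl16 followed at 10.4, Cxcl9 at 8.41, Cxcl10 at 8.19, Cx3cl1 at 4.91, Cxcl1 at 1.90, Cxcl6 at 0.119 and Cxcl2 at 0.0421 FPKM. Among neighbours in this order, the ranges of control libraries were apart only between Cxcl12 and Cxcl16, Cx3cl1 and Cxcl1, and Cxcl1 and Cxcl6. In MIA the mean FPKM ran from Cxcl14 at 130 ± 122 and Cxcl13 at 115 ± 102 (SD, n = 4), through Cxcl16 at 39.7, Cxcl12 at 30.9, Cxcl6 at 22.6, Cxcl1 at 19.2, Cxcl10 at 17.9, Cxcl2 at 10.1 and Cxcl9 at 9.76, down to Cx3cl1 at 4.05 FPKM. Every pair of neighbours in the MIA order overlapped, so that order is not resolved by 4 rats.

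The classes were mixed differently in single libraries. The homeostatic ligands held 49.95% to 72.7% of the summed chemokine FPKM in controls and 46.2% to 89.3% in MIA. The neutrophil-attracting ligands held 0.764% to 3.46% in controls and 12.7%, 3.74%, 34.4% and 1.08% in MIA 1 to 4. The interferon-induced ligands held 34.7% in control 3, beside 7.98% in control 2, 7.93% in control 4 and 3.71% to 9.43% in MIA. The transmembrane ligands held 13.9% to 18.9% in controls and 5.91% to 14.3% in MIA. By share, MIA 3 thus stood out for its neutrophil-attracting ligands, MIA 4 for its homeostatic ligands, and control 3 for its interferon-induced ligands. By level these libraries stood apart less for 2 of the classes. The interferon-induced ligands summed to 53.7 CPM in control 3 and 49.0 CPM in MIA 2, and the homeostatic ligands to 628 CPM in MIA 4 and 531 CPM in MIA 2.

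**Figure D2:**
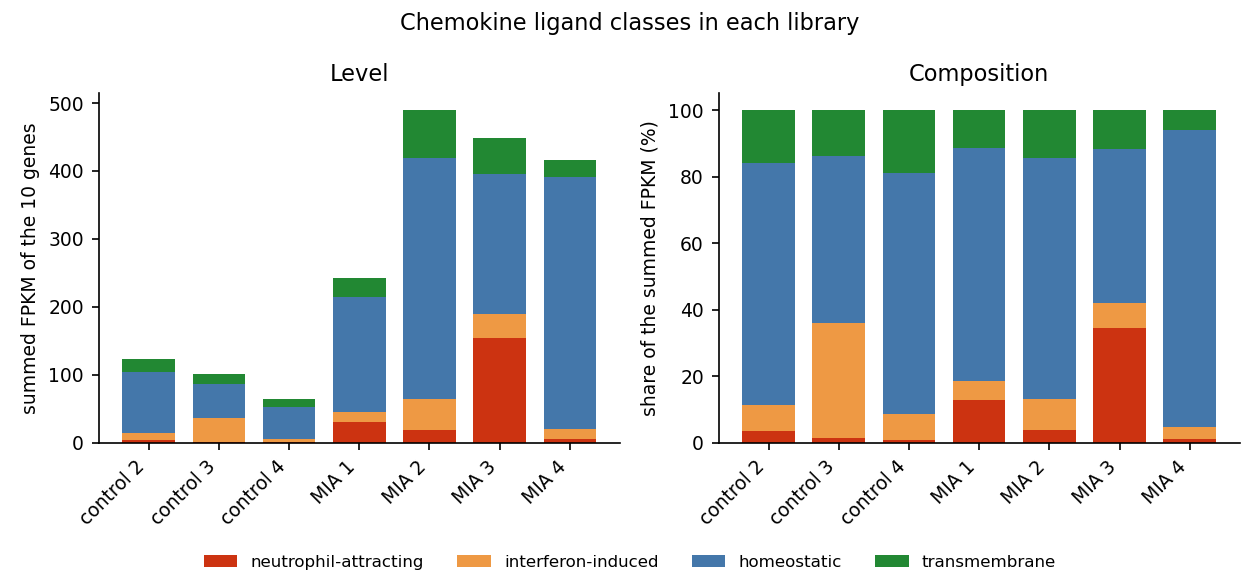
Summed FPKM of the 4 ligand classes (left) and each class as a percentage of that sum (right), stacked for each of the 7 libraries; FPKM here are not TMM-scaled. The neutrophil-attracting part is largest in MIA 3, at 154 FPKM, and the homeostatic part reaches 372 FPKM in MIA 4.

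**Figure D3:**
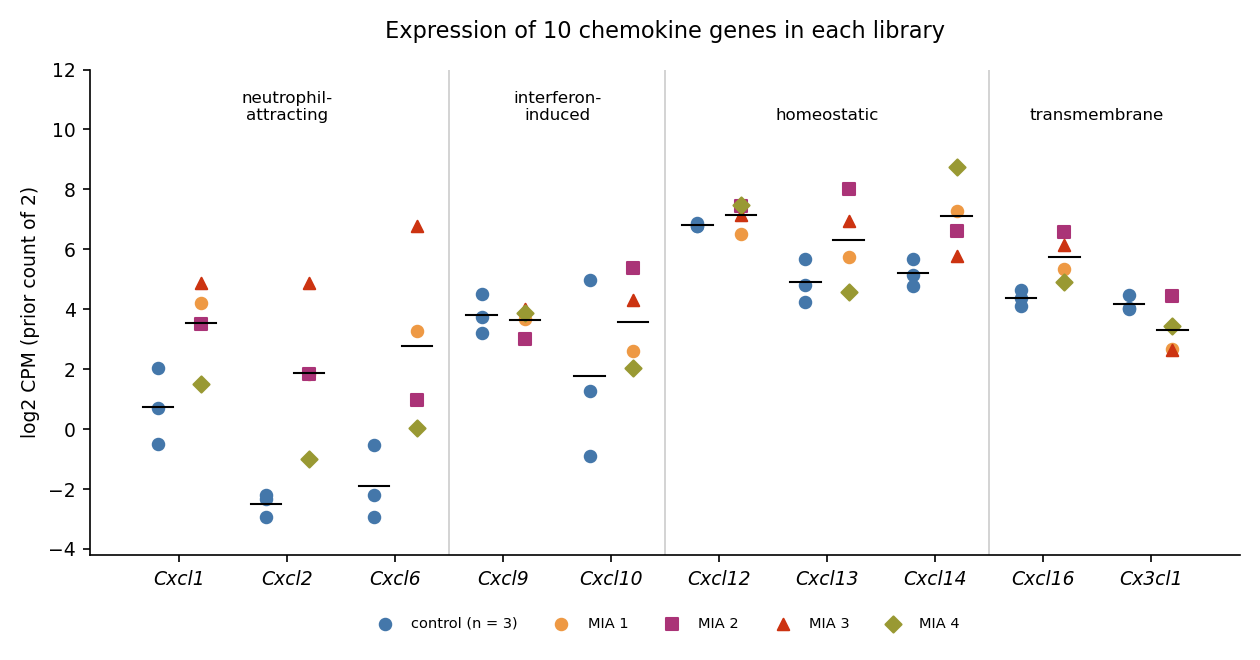
Level of each chemokine in every library as log2 CPM with a prior count of 2 (vertical axis, not divided by gene length), with 3 control and 4 MIA points and a bar at each group mean. The MIA points of Cxcl2 and Cxcl6 spread widely with MIA 3 on top, whereas the control points of Cxcl12 lie close together.

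The neutrophil-attracting genes Cxcl1, Cxcl2 and Cxcl6 carry kappaB consensus letters close to their starts, so the 250 bases before each start are shown. Sequences are from RefSeq, build GRCr8, all on the minus strand: Cxcl1 at chr14:17479322-17479571, Cxcl2 at chr14:17467256-17467505 and Cxcl6 at chr14:17596418-17596667. Capitals mark matches to the kappaB consensus on either strand, where matches can overlap by all but 1 base or, on opposite strands, in full.
Cxcl1: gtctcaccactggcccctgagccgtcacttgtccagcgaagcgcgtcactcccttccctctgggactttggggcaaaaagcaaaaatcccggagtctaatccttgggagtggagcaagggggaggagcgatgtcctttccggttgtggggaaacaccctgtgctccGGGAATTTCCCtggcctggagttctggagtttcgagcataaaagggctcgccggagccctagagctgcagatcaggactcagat
Cxcl2: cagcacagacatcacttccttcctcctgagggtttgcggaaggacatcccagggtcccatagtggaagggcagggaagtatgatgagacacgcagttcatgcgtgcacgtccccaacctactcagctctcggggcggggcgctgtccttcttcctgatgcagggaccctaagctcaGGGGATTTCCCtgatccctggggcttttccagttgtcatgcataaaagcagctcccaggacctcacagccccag
Cxcl6: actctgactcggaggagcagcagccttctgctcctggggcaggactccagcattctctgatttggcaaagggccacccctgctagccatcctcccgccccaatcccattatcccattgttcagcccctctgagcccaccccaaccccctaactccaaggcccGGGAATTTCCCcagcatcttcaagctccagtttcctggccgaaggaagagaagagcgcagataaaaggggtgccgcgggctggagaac
Counted from the start, the matches began at -84 and -83 in Cxcl1, at -74 and on both strands at -73 in Cxcl2, and at -88 and -87 in Cxcl6, so each promoter held 1 stretch of overlapping matches. The consensus stood in 3 of 3 promoters of this class, in 1 of 2 of the interferon-induced class (Cxcl10), and in 0 of 3 homeostatic and 0 of 2 transmembrane promoters. Of 33469 promoters of the same length, 6.33% held the consensus. The motifs searched were chosen after the sequences were seen, and a match is a description of the sequence, not a bound site.

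Cxcl1 rose 7.51-fold. Its levels were 3.99, 1.50 and 0.573 CPM in controls 2 to 4 and 18.5, 11.2, 29.2 and 2.74 CPM in MIA 1 to 4. MIA 4 lay below control 2, so the groups overlapped by that 1 library. This was a log2 change of 2.91 ± 0.87 (SE) with an edgeR adjusted p of 0.0284. The call was lost without control 3 (0.0998), control 4 (0.0942), MIA 1 (0.0587) or MIA 3 (0.0577), where the values are adjusted p.

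Cxcl2 was almost absent from control synovium, with 2 counts over the 3 control libraries and 654 over the 4 MIA libraries. Its levels were 0.0700, 0.0879 and 0 CPM in controls and 3.41, 3.44, 29.0 and 0.369 CPM in MIA 1 to 4. All MIA libraries lay above all controls, and MIA 3 was 8.42-fold above the next. The ratio of summed counts, scaled by library size, was 177 with an exact 95% interval of 48.9 to 1467, which covers counting error alone. The fitted log2 change was 7.22 ± 1.84 (edgeR adjusted p = 0.0154), a value that depends on the prior count. It missed the threshold without any 1 of the controls (adjusted p 0.0535 to 0.0648), and without MIA 1, 2 or 3 Cxcl2 did not pass the filter.

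Cxcl6, for which the RefSeq table lists Cxcl5 as an older name, showed the widest spread between MIA rats. Its levels were 0.560, 0.0879 and 0 CPM in controls and 9.51, 1.85, 109 and 0.896 CPM in MIA 1 to 4. The groups did not overlap, and MIA 3 held 89.9% of the MIA signal, 11.4-fold above MIA 1. Its log2 change was 6.98 ± 2.14 (edgeR adjusted p = 0.0312) and was 4.10 without MIA 3 (adjusted p = 0.0360). Leaving out any 1 control ended the call, at adjusted p from 0.0708 to 0.107. The SD of log2 CPM among MIA libraries was 2.99 for Cxcl6, 2.40 for Cxcl2 and 1.45 for Cxcl1, beside a median of 0.38 over all tested genes. Reads could be split between Cxcl1, Cxcl2 and Cxcl3 where these paralogs share sequence, so their separate values carry that uncertainty.

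Some neutrophil transcripts were also highest in MIA 3, and others were not. The summed neutrophil markers were 11.5 to 16.5 CPM in controls and 50.2, 42.4, 561 and 27.4 CPM in MIA 1 to 4. Of all tested genes, 21.3% were higher and 19.6% lower. Among the neutrophil markers 3 of 4 tested rose: Csf3r, S100a8 and S100a9, which carried the sum. The other 5 markers encode granule proteins and were low, and their values are given after having been seen. Mpo, the myeloperoxidase gene, was 6.86, 0.176 and 0.654 CPM in controls and 0.179, 3.51, 0.216 and 2.58 CPM in MIA 1 to 4, highest in control 2. Ngp was 0.409 to 0.630 CPM in controls and 0.299, 1.91, 0.325 and 2.90 CPM in MIA, so that MIA 3 lay below every control. Elane and Ltf had 1 control count each and 26 and 17 MIA counts, with their highest values in MIA 4 and MIA 2, and Camp had 2 and 76 counts with its highest value in MIA 3. S100a9, a calcium-binding protein abundant in neutrophils, was 4.06 to 4.83 CPM in controls and 15.1, 15.6, 293 and 7.70 CPM in MIA (log2 change 4.20, edgeR adjusted p = 0.0419). Cxcr2, the receptor shared by these ligands and chosen after its values were seen, was 0.420, 0.352 and 0.573 CPM in controls and 2.57, 2.49, 21.2 and 0.475 CPM in MIA. Its log2 change was 3.88 ± 1.28 (edgeR adjusted p = 0.0408), and MIA 4 lay within the control range. Neither S100a9 nor Cxcr2 was called once any 1 control was left out. The part of neutrophils in the levels of Cxcl1, Cxcl2 and Cxcl6 was not tested.

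Of the 13 tested genes of NF-kappaB inducers and feedback, 8 rose and none fell, beside 21.3% of all tested genes higher and 19.6% lower, with a median log2 change of 1.17. Of the 13, Il6 alone had every control under the level of the count filter and passed it through MIA libraries. Il17ra, a subunit of the interleukin-17 receptor, rose from 20.0 to 28.9 CPM in controls to 73.2 to 102 CPM in MIA (log2 change 1.81 ± 0.19, edgeR adjusted p = 0.000950). Nfkbiz, an inducible nuclear IkappaB protein, rose from 8.84 to 19.2 CPM to 52.7 to 143 CPM (2.69 ± 0.42, 0.00254). Both lay above every control in all 4 MIA rats. Il1b, the cytokine interleukin-1 beta and chosen after its values were seen, was 1.26, 4.05 and 1.47 CPM in controls and 10.9, 11.9, 177 and 5.48 CPM in MIA. Its log2 change was 4.52 ± 1.42 (edgeR adjusted p = 0.0338), lost without any 1 control (0.0739 to 0.117). The highest library was again MIA 3 and the lowest MIA library MIA 4, as for Cxcl1, Cxcl2 and Cxcl6.

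The interferon-induced ligands did not pass the test. Cxcl9 was 13.2, 22.7 and 9.08 CPM in controls 2 to 4 and 12.6, 7.84, 15.9 and 14.6 CPM in MIA 1 to 4. The groups overlapped, and control 3 held the highest value of all libraries. The log2 change of Cxcl9 was -0.24 ± 0.35 (edgeR adjusted p = 0.615), and its sign turned to 0.22 with library totals and 0.18 without control 3.

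Cxcl10 varied more within the groups than between them. Its levels were 2.31, 31.0 and 0.409 CPM in controls and 5.92, 41.2, 19.9 and 3.95 CPM in MIA 1 to 4. Control 3 was 75.9-fold above control 4, and MIA 2 was 10.4-fold above MIA 4. For Cxcl10 the log2 change was 0.66 ± 1.24 (edgeR adjusted p = 0.692), which became 3.66 without control 3 (0.0635) and -0.16 without MIA 2 (0.926). The direction of Cxcl10 therefore rested on single libraries.

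The Cxcl10 promoter is shown because it alone among the 10 held both motifs searched, the kappaB consensus and the interferon-stimulated response element (ISRE) consensus, in capitals on either strand. It lies at chr14:15988816-15989065 on the plus strand (RefSeq, GRCr8).
Cxcl10: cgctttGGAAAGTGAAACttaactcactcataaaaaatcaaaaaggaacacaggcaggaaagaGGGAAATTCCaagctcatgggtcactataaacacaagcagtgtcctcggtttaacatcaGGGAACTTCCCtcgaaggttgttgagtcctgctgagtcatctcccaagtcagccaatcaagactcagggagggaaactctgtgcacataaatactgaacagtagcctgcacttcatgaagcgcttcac
The ISRE match ran from -244 to -233, and the kappaB matches began at -187, -128 and -127. The ISRE consensus stood in 0.535% of the 33469 promoters and in 1 of the 10 here.

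Of the 14 tested genes of the interferon-gamma axis, 5 rose and none fell, with a median log2 change of 0.69. Over all tested genes 21.3% were higher and 40.9% were called in either direction, so the count of 5 is not a result about this list. Irf8, a transcription factor of myeloid cells, rose from 8.47 to 9.59 CPM in controls to 30.9, 31.4, 83.4 and 34.9 CPM in MIA (log2 change 2.34 ± 0.40, edgeR adjusted p = 0.00332). Ciita, the master regulator of class II antigen presentation genes, rose from 2.64 to 3.22 CPM to 7.91 to 18.1 CPM (2.06 ± 0.32, 0.00252). With library totals 11 of the 14 rose. Ifng itself, reported after its value was seen, had 0 counts in controls and 12 in MIA and was not tested.

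Cxcr3, the receptor of both ligands, was chosen after its values were seen. It was 0.350, 0.176 and 0.327 CPM in controls and 0.479, 3.57, 5.46 and 1.27 CPM in MIA, and all MIA libraries lay above all controls (log2 change 3.19, edgeR adjusted p = 0.0228). The call was lost without any 1 control (0.0622 to 0.0844). The T and NK cell markers summed to 42.5 to 59.3 CPM in controls and 69.4 to 218 CPM in MIA. Of 7 tested markers 3 were higher, beside 21.3% of all tested genes higher and 19.6% lower. Cd4, which macrophages of the rat also carry, made up most of the marker sum in every library but MIA 3. It was 37.9 to 56.9 CPM in controls and 94.0, 203, 68.0 and 58.7 CPM in MIA 1 to 4. The T cell genes Cd3e, Cd3g and Cd8a, chosen after their values were seen, peaked in MIA 3 at 8.76, 7.41 and 24.2 CPM. Cd3e, Cd3g and Cd8b passed the count filter through MIA libraries alone, so the 3 of 7 is a description. Whether Cxcl9 and Cxcl10 and their receptor changed differently was not tested.

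Among the homeostatic ligands, Cxcl12 was the steadiest. It was 119, 109 and 110 CPM in controls 2 to 4 and 90.6, 174, 141 and 177 CPM in MIA 1 to 4. MIA 1 lay below the controls and the other 3 above them. The log2 change was 0.37 ± 0.25 (edgeR adjusted p = 0.258), and it was called with library totals and with both FPKM scales. Its signalling receptor Cxcr4 rose from 10.4, 12.1 and 11.3 CPM to 64.2, 33.5, 116 and 27.9 CPM (2.42 ± 0.50, adjusted p = 0.00679). Cxcr4 stayed called under all 18 alternatives. Ackr3, the scavenging receptor of Cxcl12 and chosen after its values were seen, was 98.5 to 143 CPM in controls and 113 to 278 CPM in MIA (0.59, adjusted p = 0.171).

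Cxcl13, the B cell attractant of lymphoid follicles, was the most abundant of the 10 in controls by mean FPKM. Its levels were 51.5, 27.6 and 18.9 CPM in controls and 53.5, 258, 124 and 23.9 CPM in MIA 1 to 4. MIA 2 and MIA 3 stood above all controls, MIA 1 stood just above control 2, and MIA 4 lay within the control range. The log2 change was 1.81 ± 0.76 and did not pass (edgeR adjusted p = 0.0884), although it did without MIA 4 (2.15, 0.0289). DESeq2, library totals and the replicate block also called Cxcl13, and the other 14 of 18 alternatives did not. Its receptor Cxcr5, chosen after its values were seen, was 9.87, 5.37 and 5.48 CPM in controls and 3.41, 5.68, 2.06 and 5.06 CPM in MIA (-0.77, adjusted p = 0.163).

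Of 6 tested genes of lymphoid organisation, 2 rose and none fell, with a median log2 change of 1.16. This count is near the share over all tested genes, 21.3% higher and 40.9% in either direction, and is not a result about the list. Ltbr, the lymphotoxin beta receptor, rose from 57.8 to 81.7 CPM in controls to 102 to 133 CPM in MIA (0.81 ± 0.19, edgeR adjusted p = 0.0104). The call on Ltbr was lost without control 3 (0.0562) or control 4 (0.0591). Il7, a survival cytokine of lymphocytes, rose from 0.409 to 1.47 CPM to 1.50 to 4.60 CPM (1.66 ± 0.56, 0.0450), a call lost without any library but MIA 1. B and plasma cell markers summed to 3.64 to 6.33 CPM in controls and 5.44, 5.74, 59.7 and 10.8 CPM in MIA. Of 5 tested markers 1 rose, near the share of 21.3% higher over all tested genes. That marker was Jchain, the joining chain of secreted antibodies, at 0.616 to 1.15 CPM in controls and 2.15, 2.61, 43.4 and 4.48 CPM in MIA (3.87, adjusted p = 0.0367, lost without any 1 control). The library with the most Cxcl13, MIA 2, was therefore not the one with the most B and plasma cell transcripts, MIA 3.

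Cxcl14, a ligand made by epithelia and stroma whose receptor is not settled, rose 4.86-fold. Its levels were 51.3, 27.1 and 35.0 CPM in controls and 155, 98.7, 54.2 and 427 CPM in MIA 1 to 4. The groups did not overlap, though MIA 3 exceeded control 2 only slightly, and MIA 4 was 2.75-fold above MIA 1. Cxcl14 had a log2 change of 2.28 ± 0.68 (edgeR adjusted p = 0.0279). It was 1.45 without MIA 4 (0.0290), and the call was lost without control 2 (0.0554), control 3 (0.103) or control 4 (0.0992). MIA 4 had the lowest levels of Cxcl1, Cxcl2, Cxcl6, Cxcl10, Cxcl13 and Cxcl16 among the MIA libraries and the highest of Cxcl12 and Cxcl14.

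Cxcl16, which binds Cxcr6 and also acts as a scavenger receptor for oxidised lipoproteins, rose 2.83-fold. Its levels were 24.9, 20.4 and 17.3 CPM in controls and 40.7, 95.6, 70.2 and 30.2 CPM in MIA 1 to 4. Every MIA library lay above every control. The log2 change was 1.50 ± 0.39 (edgeR adjusted p = 0.0172), lost without control 3 (0.0638) or control 4 (0.0753) and with the muscle marker level as a covariate (0.79, 0.246). Of 8 macrophage markers 7 rose, beside 21.3% of all tested genes higher and 19.6% lower. Their sum was 1211, 1444, 1083 and 592 CPM in MIA 1 to 4. MIA 2 was the highest and MIA 4 the lowest MIA library for this sum and for Cxcl16. MIA 1 exceeded MIA 3 in the sum, whereas for Cxcl16 MIA 1 lay below MIA 3. C1qa, a complement subunit made by macrophages, rose from 76.9 to 96.1 CPM in controls to 95.0 to 254 CPM (1.23, 0.0211), with MIA 4 inside the control range and the call lost without any 1 control. Single markers differed from the sum: like Cxcl16, C1qa, Cd68 and Adgre1 were higher in MIA 3 than in MIA 1. The markers Csf1r, Cd14, Cd163, Mrc1 and C1qb were lower in MIA 3 than in MIA 1. These single markers were compared after their values were seen. The part of macrophages in the level of Cxcl16 was not tested. Cxcr6, chosen after its values were seen, was 0.0818 to 0.560 CPM in controls and 0.598, 0.893, 10.1 and 1.32 CPM in MIA (3.24, adjusted p = 0.0621).

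Cx3cl1, or fractalkine, was 1 of 2 chemokines with a negative log2 change. Its levels were 22.1, 16.0 and 16.2 CPM in controls and 6.22, 21.7, 6.06 and 10.7 CPM in MIA 1 to 4. Every MIA library except MIA 2 lay below all controls. For Cx3cl1 the log2 change was -0.70 ± 0.44 (edgeR adjusted p = 0.235) and became -1.23 without MIA 2 (0.0129). Its receptor Cx3cr1, carried by monocytes and macrophages, went the other way: 1.40, 0.352 and 2.37 CPM in controls and 13.2, 13.6, 5.68 and 3.80 CPM in MIA. Cx3cr1 rose by 2.71 ± 0.69 on the log2 scale (adjusted p = 0.0158), a call lost without control 2 (0.0519) and with the muscle marker level as a covariate (0.194). Whether ligand and receptor differed in their change was not tested.

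Markers of cells known to make Cx3cl1 moved in different ways. No endothelial marker of 6 passed the test, and their sum was 544 to 896 CPM in controls and 692 to 1248 CPM in MIA. Cdh5, the endothelial cadherin, was 154 to 257 CPM and 189 to 291 CPM (0.18, adjusted p = 0.590). The lining fibroblast markers summed to 1928, 4817 and 2709 CPM in controls and 489, 5424, 293 and 1916 CPM in MIA 1 to 4. Among MIA libraries MIA 2 was high and MIA 1 and MIA 3 low, as for Cx3cl1. Among controls the order was not shared: control 2 was lowest and control 3 highest in this sum, the reverse of Cx3cl1. Prg4, which encodes the joint lubricant lubricin, held most of that sum and did not pass (-0.42, 0.755), with a sign that turned with library totals (0.0167) and without control 3 (0.0212). Clic5, a chloride channel protein chosen after its values were seen, fell with a log2 change of -2.29 (edgeR adjusted p = 0.00513). Clic5 was the only call among 5 tested lining markers, beside 21.3% of all tested genes called higher and 19.6% lower. The part of lining cells in the level of Cx3cl1 was not tested.

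**Figure D4:**
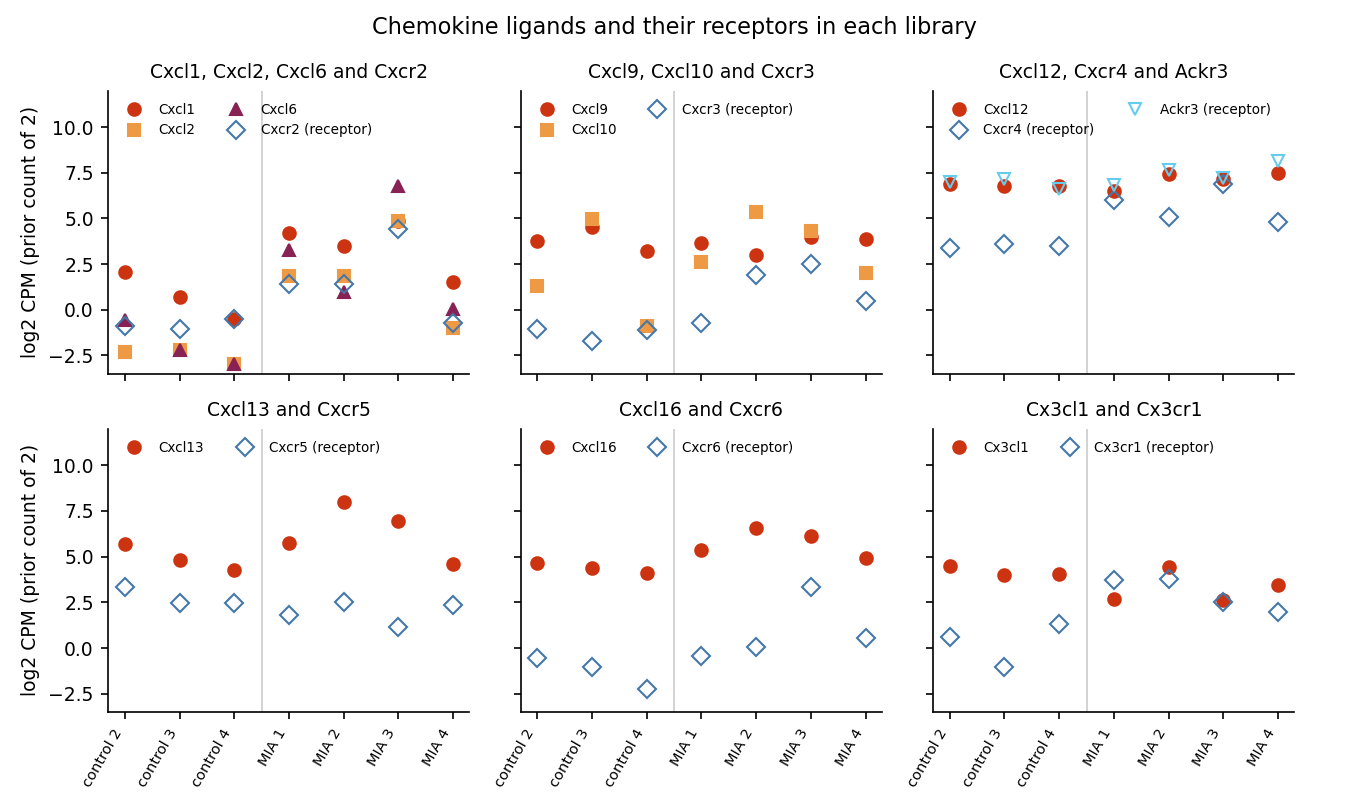
Ligands and their receptors per library, as log2 CPM with a prior count of 2 and not divided by gene length, with filled points for ligands and open points for receptors. Cxcr4 and Cx3cr1 lie higher in MIA while their ligands Cxcl12 and Cx3cl1 overlap between the groups, and Cxcr2 peaks in MIA 3.

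Across the receptor list, 4 of 7 tested genes rose and none fell, beside 21.3% of all tested genes higher and 19.6% lower, with a median log2 change of 2.71. Cxcr2, Cxcr3 and Cxcr6 had every control under the level of the count filter and passed it through MIA libraries, so the count and median are a description. Cxcr1, reported after its value was seen, had 3 counts in all and was not tested, and Ackr1 was not matched. Enzymes that shed or cleave chemokines rose in 6 of 9 tested cases, beside 21.3% of all tested genes higher and 19.6% lower, with none lower and a median of 1.32. Mmp8 and Mmp12 among the 9 likewise passed the filter through MIA libraries, with every control under its level. Mmp2, a gelatinase that trims Cxcl12 and Cx3cl1, rose from 309 to 358 CPM in controls to 1424 to 2226 CPM in MIA (2.56 ± 0.32, edgeR adjusted p = 0.00136). Adam17, the sheddase of Cx3cl1 and other membrane proteins, rose from 45.2 to 50.5 CPM to 95.0 to 139 CPM (1.32 ± 0.18, 0.00168). Adam10, the other main sheddase of Cxcl16 and Cx3cl1 and chosen after its values were seen, rose from 36.0 to 43.4 CPM to 56.7 to 63.3 CPM (0.59, 0.0112). The call on Adam10 was lost under 2 of 18 alternatives, at an adjusted p of 0.0559 without control 4 and 0.0665 in the other. For all 3 proteases, every MIA library lay above every control.

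Other CXC ligands were uneven in level. Pf4 had a mean of 97.4 FPKM in controls and 361 FPKM in MIA. The highest mean among the chemokines examined was 24.7 FPKM in controls (Cxcl13) and 130 FPKM in MIA (Cxcl14). Of 5 other CXC ligands matched, 2 were tested, and edgeR called none at an adjusted p under 0.05. Pf4, or platelet factor 4, had an unadjusted p under 0.05. It was 31.2 to 46.5 CPM in controls and 121, 113, 144 and 24.1 CPM in MIA (1.46 ± 0.53, adjusted p = 0.0553). Which cells made Pf4 was not tested. Cxcl11, the other Cxcr3 ligand, was 1.12, 0.967 and 0.245 CPM in controls and 1.02, 2.68, 13.9 and 0.422 CPM in MIA (2.51 ± 1.19, 0.124). Pf4 was lowest of all 7 libraries in MIA 4, and Cxcl11 was high in MIA 3 alone. DESeq2 called both.

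Of the 10 chemokines, 6 lie on chromosome 14 in the RefSeq table. Cxcl2 is the neighbour of Cxcl1, Cxcl10 lies between Cxcl11 and Cxcl9, and Cxcl6 lies beside Ppbp. The adjacent genes Cxcl9, Cxcl10 and Cxcl11 had their highest values in different libraries: control 3, MIA 2 and MIA 3. Cx3cl1 lies between Ccl17 and Ccl22 on chromosome 19. Adjacent Cxcl1 and Cxcl2 both peaked in MIA 3, as did Cxcl6 farther along the chromosome.

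For each chemokine, the tested genes with the nearest log2 CPM profile over the 7 libraries were found by root mean square distance after centring. They were Ebi3 (0.50) and Aoah (0.57) for Cxcl1, Ms4a7 (0.73) for Cxcl2, and Slpi (0.79) and Fam111a (0.91) for Cxcl6. Zbp1 (0.74) and Mx1 (0.92) were nearest to Cxcl10, and Fam89a (0.21) and Bst2 (0.22) to Cxcl9. Among the others, C5ar1 and Crlf2 lay nearest to Cxcl16 (both 0.13), and Morn1 (0.12) and Sulf1 (0.13) nearest to Cxcl12. Rab11fip1 (0.44) and Lpcat2 (0.46) lay nearest to Cxcl13, Asns (0.46) and Ndst2 (0.47) to Cxcl14, and Entpd2 (0.20) and Plcd3 (0.21) to Cx3cl1. These distances grow with the spread of the profile, so they rank genes within 1 chemokine and not between chemokines.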

How the data were processed

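RNA from the synovium of 7 rats, 3 control and 4 MIA, had been sequenced as 1 library per rat from 1.5 µg of RNA, with groups and numbers as labelled. Named in the submitters' processing notes are HISAT2, HTSeq 0.11.2, DESeq2 1.26.0 and the build Rnor_6.0, with no roles stated. Per the file headers, each library has a column of counts and one of FPKM. The deposited counts were whole numbers. The deposited FPKM values, computed back, are counts per gene length and library total, and 18593 of 18593 genes counted in at least 2 libraries had 1 length throughout. The sources used here give neither strand setting nor annotation release, so overlapping genes and near-identical paralogs are uncertain.

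Counts were tested in R 4.3.3 with edgeR 4.0.16 (filterByExpr, TMM factors, quasi-likelihood F test, Benjamini-Hochberg over 14054 genes, called at an adjusted p under 0.05). TMM factors were 0.801 to 0.903 in controls and 1.06 to 1.23 in MIA, and the common biological coefficient of variation was 36.7%. The SE was derived as the size of the log2 change over the root of the F statistic. On simulated data over 13865 genes for MIA against control, 10.3% of 2-fold and 68.8% of 4-fold changes were called, 5% of calls were false and 0 had the wrong direction. Few tested genes carried a change there, 97 of 2-fold and 96 of 4-fold. These rates therefore do not carry over to the real fit, where 40.9% of genes were called.

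Motifs were the kappaB and ISRE consensus sequences in their usual degenerate form. The 10 chemokines, the lists and the tests were chosen with earlier results of these data known. Named genes were the 10 chemokines, the 2 tested genes with the smallest p of each of 6 pathway lists, the highest gene by mean FPKM of marker lists that moved with a result, and the 2 nearest profiles per chemokine, of which 1 for Cxcl2 is not reported here; any other gene is marked as chosen after seeing its values. Promoters were matched by symbol to RefSeq GRCr8, another build than that of the counts, for 10 of 10 chemokines. From that table only names and gene order were otherwise used.

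The alternatives comprised library totals, median-of-ratios factors, TMM without muscle, blood and mitochondrial genes, DESeq2 1.42.0, limma-voom (limma 3.58.1), limma on log2(FPKM + 1) and log2(FPKM + 0.1), no filter, a stricter filter, the muscle marker level as a covariate, a replicate block, and leaving out each library. Python 3.11.15 with pandas 2.3.3, scipy 1.17.1 and matplotlib 3.10.9 made tables and figures.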

Additional observations from a re-analysis of the deposited data

Results flagged for a closer look

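In MIA 3, several levels lay far from the other 3 MIA libraries, with a gap to the nearest library larger, as a share of the group's whole range, than Dixon's 95% critical value for 4 samples. These were Cxcl2 at 29.0 CPM and Cxcl6 at 109 CPM among the chemokines. Cxcl11 at 13.9 CPM, Cxcr2 at 21.2 CPM and Cxcr6 at 10.1 CPM met the same criterion, as did Il1b at 177 CPM, S100a9 at 293 CPM, Irf8 at 83.4 CPM and Jchain at 43.4 CPM. Of 36 genes and 4 class sums checked in the 4 MIA libraries, 9 genes were singled out, all by MIA 3. Chance singles out about 1 in 20 groups of normally distributed values. That rate does not apply to this count, because several of the genes were chosen after their values were seen. The criterion was also applied to CPM, which are not on a log scale. On the log2 CPM scale, the gap of MIA 3 took a smaller share of the range for Cxcl2, Cxcl6, Cxcr2 and Cxcr6. That share was under the critical value, so by this criterion these levels stood out on the CPM scale only. Cxcl11, Il1b, S100a9, Irf8 and Jchain were not compared on the log2 scale, so whether they stand out there is not known from these values. All genes singled out share MIA 3, so these are not separate observations.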

How the results depend on the processing

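The 5 chemokine calls were the same 5 genes under median-of-ratios factors, TMM without muscle, blood and mitochondrial genes, no filter and the stricter filter. They numbered 2 with limma-voom and 3 with muscle level as covariate, and ranged from 0 to 6 when single libraries were left out. With the replicate block, which uses 6 libraries because MIA 1 has no partner, 3 were called (Cxcl1, Cxcl13 and Cxcl16), as were 2 receptors and 4453 genes. Same-numbered libraries correlated by 0.245, 0.0967 and 0.0425 in their deviations from the group means, and differently numbered ones by -0.237 to 0.186. The main fit took the numbers as names, which these values do not settle. The cause of the differences in calls under the block was not tested.

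All genes called numbered 2338 with the muscle covariate, which leans on MIA 2 with its muscle share of 0.0591%, and 3399 to 5724 with a library left out. With limma-voom, calls numbered 2 receptors, 3 shedding genes, 5 NF-kappaB genes and 1 lymphoid gene. With the muscle covariate they numbered 5 NF-kappaB genes and 0 lymphoid genes. Library totals gave 11 interferon-gamma genes, 4 lymphoid genes and 1 other CXC ligand, both FPKM scales gave 11 interferon-gamma genes, and log2(FPKM + 0.1) gave 1 other CXC ligand. DESeq2 gave 4 lymphoid genes and 2 other CXC ligands, and gave no adjusted p for Cxcl6; no filter gave 1 of each of these lists. Over the leave-one-out fits, calls ran from 1 to 4 receptors, 4 to 9 NF-kappaB genes, 0 to 2 lymphoid genes and 0 to 1 other CXC ligands.

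Signs turned for 3 named genes, none of them called. Cxcl9 was 0.22 with library totals, 0.22 and 0.25 on the FPKM scales with pseudocounts 1 and 0.1, 0.38 with the muscle covariate, and -0.50 to 0.18 with a library left out. Cxcl10 was -0.80 with the muscle covariate and -0.16 to 3.66 with a library left out. Prg4 was 0.0167 with library totals and -1.63 to 0.0212 with a library left out, the highest without control 3. The cause was not tested. Cx3cl1 was lower at -1.94 (adjusted p = 0.0238) with the muscle covariate. With 3 and 4 rats, and few control counts of Cxcl2 and Cxcl6, changes could be missed. How often 2-fold changes were missed here is not known, because the simulation changed few genes and so set a stricter cutoff on p. Changes under 2-fold were called in the real data, such as Adam10 at a log2 change of 0.59 (edgeR adjusted p = 0.0112).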

Other observations

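Genes near the limit of detection in the cytokine lists, chosen after their values were seen, were also uneven. Il17a, a cytokine that induces neutrophil-attracting chemokines, had 46 counts, all in MIA 3. Cxcl3, the third neutrophil-attracting paralog of the Cxcl1 group, was 0.280, 0 and 0 CPM in controls and 0.538, 1.59, 13.6 and 0.0527 CPM in MIA 1 to 4, too low in most libraries to be tested. Tnf had 1 count in all libraries together. These values carry no test.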
